A study of Homo sapiens with 12 samples.

Results

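The cancer-testis antigen families are groups of genes that are active in the male germ line, silent in most other adult tissues, and switched on again in many tumours. The members described here are the protein-coding rows of the deposited expression table whose symbols fall in the MAGEA, MAGEB, MAGEC, GAGE, PAGE, XAGE, SSX, CTAG, CSAG or PRAME families and whose value was above 0 in at least 3 of 12 libraries. There were 48 such rows of 60658 in all, and 26 of them reached the level needed for testing. They were the survivors of 62 protein-coding rows with a matching symbol, of which 10 were at 0 in every library. The row of SSX2IP carries the SSX letters but encodes a partner protein of an SSX antigen, so it is given apart from the other 47. Just inside the limit, MAGEA10, MAGEB4, XAGE2 and XAGE3 were above 0 in exactly 3 libraries, and just outside it MAGEB6B was above 0 in 2.

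The cells were K-562, a human erythroleukemia line, and expression was measured by sequencing of poly(A) RNA taken 24 hours after siRNA transfection, in 3 separate experiments per the design text. The 4 groups held 3 libraries each. In D152V_Rescue, a stable line expressing 3xTY-D152V, a tagged MYB named for an amino acid substitution, received the MYB siRNA si2992. In MYB-WT_Rescue, a stable line expressing 3xTY-hcM, the form the titles call wild-type MYB, received the same siRNA. In MYB_KnockDown, a stable line with the 3xTY1 tag alone received si2992, and in siRNA_Control the same tag line received a siGENOME non-targeting siRNA. All lines were selected with G418, and whether a line is 1 clone was not stated. Each rescue form was present in a line of its own, so the form of MYB and the line cannot be told apart, and the comparison of knockdown with control is the 1 contrast made within a line.

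As background, most of these antigens lie in clusters of close copies on the X chromosome, and methylation of CpG pairs in their promoters keeps them silent in somatic cells. MAGE proteins share a domain through which they bind and steer ubiquitin ligases, for example TRIM28. SSX proteins repress transcription and are known from their fusion with SS18 in synovial sarcoma, while PRAME is a substrate receptor of CUL2 ubiquitin ligases and a repressor of retinoic acid receptor signalling. GAGE, PAGE and XAGE genes encode small, acidic, mostly disordered proteins. MYB, the protein depleted here, is a transcription factor of blood progenitors. In these data 46 of the 48 members lie on the X chromosome, with PRAME on chromosome 22 and SSX2IP on chromosome 1.

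MYB itself had 86.6, 86.2 and 100.4 FPKM in D152V_Rescue, 132, 125 and 115 in MYB-WT_Rescue, 26.1, 32.9 and 31.5 in MYB_KnockDown, and 124, 132 and 104 in siRNA_Control, where FPKM is a fragment count divided by transcript length and by the library's mapped total. It fell in the knockdown by 1.96 ± 0.13 on the log2 scale (SE; limma, adjusted p = 3.03e-05). Between the rescue lines MYB differed by -0.44 ± 0.13 in D152V_Rescue against MYB-WT_Rescue (limma adjusted p = 0.0494), a value at the threshold. Against control neither rescue line was called for MYB, at -0.39 in D152V_Rescue and 0.05 in MYB-WT_Rescue (limma adjusted p = 0.0943 and 0.877). The part of MYB level in the differences between the rescue lines was not tested. All 12 listed markers of K-562 passed the level filter. Their sums ran from 2360 to 3980 FPKM in D152V_Rescue, 1070 to 2150 in MYB-WT_Rescue, 2040 to 6300 in MYB_KnockDown and 1520 to 3120 in siRNA_Control. The rescue lines did not overlap each other in these sums, while both overlapped control. Of 12 markers of testis germ and support cells only AMH and STAR passed the level filter, while DDX4, PRM1, PRM2 and INSL3 were listed at 0 in every library. Those 12 testis markers summed to 47.2 to 54.0 FPKM in D152V_Rescue, 37.2 to 38.7 in MYB-WT_Rescue, 57.0 to 57.9 in MYB_KnockDown and 75.8 to 77.8 in siRNA_Control, lower in both rescue lines than in control. Of 11 markers of other blood cells 4 passed the filter and MS4A1 and ELANE were listed at 0 in every library, and the sums of the 11 ran from 84.4 to 119 FPKM in D152V_Rescue, 52.5 to 76.2 in MYB-WT_Rescue, 50.5 to 113 in MYB_KnockDown and 43.1 to 47.0 in siRNA_Control. Of 6 markers of fibroblasts and epithelium 4 passed, led by KRT18, and the sums of the 6 ran from 147 to 179 FPKM in D152V_Rescue, 170 to 186 in MYB-WT_Rescue, 231 to 737 in MYB_KnockDown and 191 to 211 in siRNA_Control. The part of these markers in the results was not tested. The library MYB_KnockDown replicate 1 stood apart. Its FPKM total was 1215578, against 672616 to 798362 in the 11 other libraries, and it correlated with its own group at r of 0.929 and 0.93, against at least 0.983 within the other groups. Read counts and depth are unknown, so a row at 0 is given only as listed at 0.

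Promoters of MAGEA3, MAGEA6, MAGEC2 and MAGEB16 show how close the copies are and how the CpG pairs are spread, since promoter CpG methylation is the known switch of these genes. Each is the 250 bases before the gene start in RefSeq (GRCh38.p14), 5′ to 3′ on the gene's strand, with CpG pairs in capitals. They are MAGEA3 (chrX:152698544-152698793, plus strand), MAGEC2 (chrX:142205291-142205540, minus strand) and MAGEB16 (chrX:35798092-35798341, plus strand, the first of its 2 entries).
MAGEA3: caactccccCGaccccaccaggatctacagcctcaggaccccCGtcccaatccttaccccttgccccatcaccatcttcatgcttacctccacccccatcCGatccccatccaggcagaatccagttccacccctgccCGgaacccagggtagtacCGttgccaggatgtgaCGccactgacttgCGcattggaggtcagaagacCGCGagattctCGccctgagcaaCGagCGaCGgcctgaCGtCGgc
MAGEC2: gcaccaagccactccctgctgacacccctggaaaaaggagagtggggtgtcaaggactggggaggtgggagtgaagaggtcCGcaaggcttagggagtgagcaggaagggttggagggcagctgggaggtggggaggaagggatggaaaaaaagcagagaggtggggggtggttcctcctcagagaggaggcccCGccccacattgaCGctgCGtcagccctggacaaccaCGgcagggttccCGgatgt
MAGEB16: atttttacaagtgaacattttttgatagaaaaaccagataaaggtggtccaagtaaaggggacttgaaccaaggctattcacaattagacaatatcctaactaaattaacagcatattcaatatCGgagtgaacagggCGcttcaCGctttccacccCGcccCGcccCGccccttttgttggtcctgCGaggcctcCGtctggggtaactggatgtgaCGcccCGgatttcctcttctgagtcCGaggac
The stretch before MAGEA6 (chrX:152769690-152769939, minus strand) equals that of MAGEA3 at all 250 positions. MAGEA3 and MAGEA6 each hold 15 CpG pairs, MAGEC2 holds 6 and MAGEB16 holds 11. A promoter was found for 40 members. With the first entry of each gene, the members had a median of 8 CpG pairs and a range of 1 to 18, against a median of 11 over the first entries of all 27305 genes. The letters AACTG or AACGG on either strand, the core of the sequence MYB binds, occurred in the first entry of 22 of these 40, or 55.0%, against 45.9% of all first entries, and in any entry of 24. The letters CCGGAA on either strand, the core bound by ETS factors, occurred in the first entry of 4, or 10.0%, against 14.8%. Such matches are descriptions of the letters and not binding sites. The promoters of SSX3, CTAG2, MAGEA1 and MAGEB17 are not shown here.

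The families differed widely in level. FPKM is a value per length, so genes can be set side by side, but only roughly. The means and shares given here include MYB_KnockDown replicate 1, in which GAGE2A reached 1024 and PAGE5 548 FPKM. PRAME had the highest mean of any member, 993 FPKM over the 12 libraries, and ranked 99 among the rows of the whole table. GAGE2A followed with 314 and PAGE5 with 192 FPKM, then SSX1 with 90.9, MAGEA3 with 69.4 and MAGEC2 with 61.8. In most families 1 copy carried the bulk of the signal. PRAME is the only member of its name here, GAGE2A held 85.8% of the GAGE sum, SSX1 82.3% of the SSX sum, PAGE5 76.2% of the PAGE sum and CTAG2 99.6% of the CTAG sum, while MAGEA3 held 33.5% of the MAGEA sum. The XAGE family was near the floor, with XAGE1B highest at a mean of 0.814 FPKM and no tested member. Reads of near-identical copies could have been split in ways that the deposited values do not show, so a value for a copy such as MAGEA3 or MAGEA6 is uncertain on its own.

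The sum of the 47 antigens was 2072, 2374 and 2348 FPKM in D152V_Rescue, 1469, 1380 and 1487 in MYB-WT_Rescue, 3922, 2418 and 2277 in MYB_KnockDown, and 1991, 2156 and 2170 in siRNA_Control. All 3 wild-type rescue libraries lay below the other 9. Against the control line, the wild-type rescue sums were 0.621 times for MAGEA, 0.557 for MAGEC, 0.54 for GAGE, 0.713 for PAGE, 0.506 for SSX, 0.0648 for CTAG, 0.689 for CSAG and 0.745 for PRAME. MAGEB stood the other way at 1.19 times, with libraries that overlapped control. These 9 directions held when libraries were rescaled by median ratios or to a common total. For D152V_Rescue against MYB_KnockDown, the sums of MAGEC, XAGE, SSX, CSAG and PRAME changed direction with the common total. For the knockdown against control, SSX changed direction too, while PRAME went from 1.16 times to 1.0 times. Scaling to a common total set the median log2 change of all tested rows at -0.20, against -0.03 as deposited, for the knockdown against control and at 0.27 for each rescue line against the knockdown, where it was 0.02 and 0.03 as deposited.

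**Figure D1:**
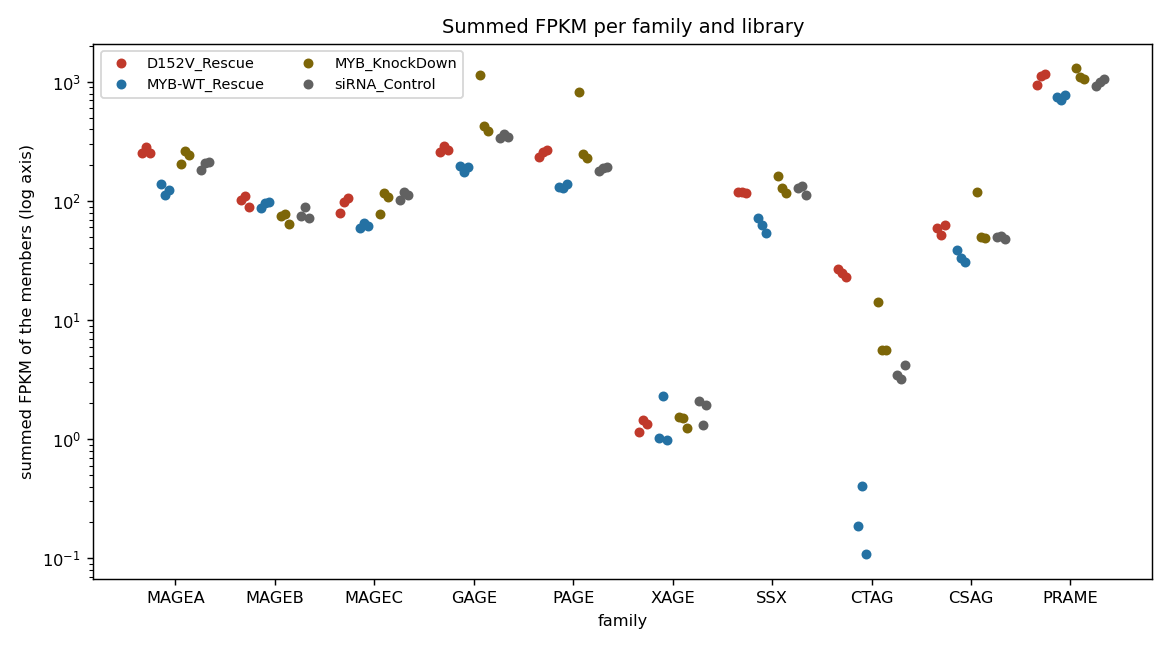
Summed FPKM of the members of each family (log axis) in each library, with D152V_Rescue, MYB-WT_Rescue, MYB_KnockDown and siRNA_Control from left to right within a family. CTAG spans the widest range between groups, with 0.108 to 0.408 FPKM in MYB-WT_Rescue and 23.0 to 27.0 in D152V_Rescue, and the high MYB_KnockDown point in GAGE, PAGE and CSAG is replicate 1.

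Of the 26 tested members, 23 were called in at least 1 of the 6 comparisons between groups (limma on log2(FPKM + 1), Benjamini-Hochberg adjusted p under 0.05 over all 13393 tested rows). MAGEA2B, MAGEA9B and MAGEB2 were called in none. Testing needed 1 FPKM in at least 3 libraries, and 4 of the 26 would not have met this without the libraries of a group where they were high: MAGEA8 through D152V_Rescue, MAGEB16 and MAGEB17 through MYB-WT_Rescue, and PAGE2 through the tag line. Their differences in favour of those groups were fixed by the filter, so they are given below as values with no test, and the counts are given with and without them. With those calls set aside, MAGEB16 and PAGE2 have none. In the knockdown against control, within the tag line, 1 member was called higher and 1 lower. Of all tested rows, 3.94% were higher and 7.38% lower. The members called were 7.69% of those tested, near the 11.3% of all rows, and members not called may still have changed. The wild-type rescue line differed most from the knockdown, with 4 members higher and 17 lower against a background of 20.6% higher and 16.9% lower, and a median log2 change of -0.97 for members and 0.03 for all rows. With MAGEB16, MAGEB17 and PAGE2 set aside, 2 were higher and 16 lower. In the D152V rescue line against the knockdown, 10 members were called, 5 higher and 5 lower, where 25.1% of all rows were called, 1745 higher and 1610 lower, and the medians were -0.14 for members and 0.02 for all rows. With MAGEA8 and PAGE2 set aside, 4 were higher and 4 lower. These comparisons share the knockdown libraries.

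Between the rescue lines, 10 members were higher in D152V_Rescue and 3 lower than in MYB-WT_Rescue, against 5.96% and 6.19% of all rows, with a median of 0.61 for members and -0.03 for all rows. With MAGEA8 and MAGEB16 set aside, 9 were higher and 2 lower. With the replicate number as a block, which pairs these libraries, 11 were higher and 3 lower, the added one being MAGEB1. Against the control line, 2 members were higher and 9 lower in MYB-WT_Rescue, where 5.04% of rows were higher and 4.58% lower, with medians of -0.57 and -0.02. With MAGEB16, MAGEB17 and PAGE2 set aside, 0 were higher and 8 lower. In D152V_Rescue 5 were higher and 4 lower than in the control line, where 4.61% and 4.94% of rows were called, with medians of 0.09 and -0.04. With MAGEA8 and PAGE2 set aside, 4 were higher and 3 lower. These comparisons share the control libraries. Against control, 5 members were called in both rescue lines, 4 of them in the same direction (MAGEB17, PAGE2, PAGE2B and SSX3, the first 2 with a call set by the filter in at least 1 line) and 1, CTAG2, in opposite directions. Without MYB_KnockDown replicate 1, which enters the shared estimate of spread, the members called became 21 of 26 between the rescue lines (15 higher and 6 lower), 21 for MYB-WT_Rescue against control (5 higher and 16 lower) and 14 for D152V_Rescue against control (8 higher and 6 lower), and none of the original calls of these comparisons was lost. Calls over all tested rows increased at the same time, to 31.4%, 29.7% and 27.7% of rows in these 3 comparisons.

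**Figure D2:**
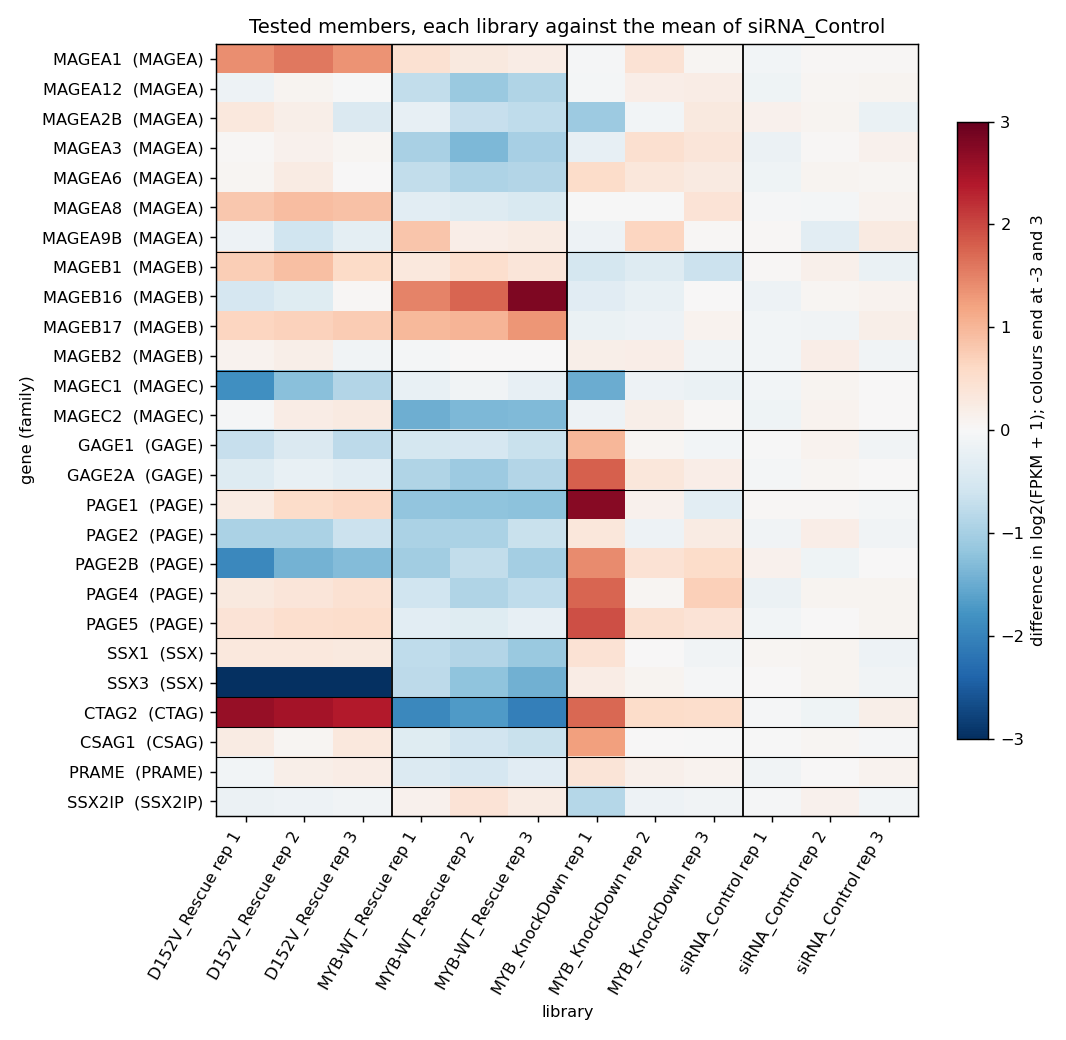
Difference of log2(FPKM + 1) from the siRNA_Control mean for the 26 tested members (rows, grouped by family) in each of the 12 libraries (columns). MYB-WT_Rescue columns are blue for most MAGEA, MAGEC2, GAGE, PAGE and SSX rows, SSX3 is darkest in D152V_Rescue and CTAG2 takes opposite colours in the rescue lines.

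**Figure D3:**
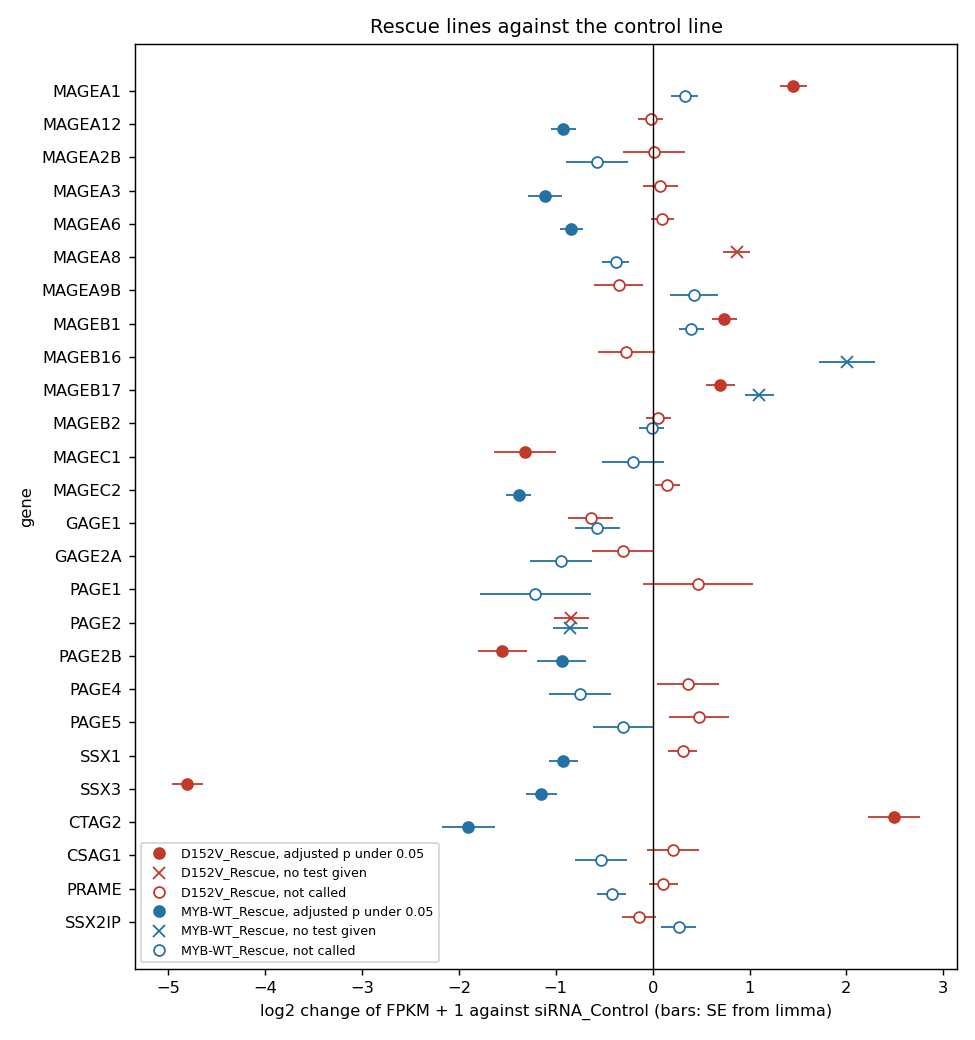
Log2 change of FPKM + 1 against siRNA_Control with its limma SE, for D152V_Rescue (red) and MYB-WT_Rescue (blue), with filled points for an adjusted p under 0.05 and crosses where the level filter fixed the difference. The farthest filled points are SSX3 at -4.80 and CTAG2 at 2.49 in D152V_Rescue, and CTAG2 at -1.90 in MYB-WT_Rescue.

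The knockdown against control asks which antigens move when MYB is depleted within the same line. MAGEB1, a MAGE family member, had 18.9, 21.0 and 17.5 FPKM in MYB_KnockDown, against 28.5, 31.0 and 24.2 in siRNA_Control. All knockdown libraries lay below all control libraries. It fell by 0.52 ± 0.13 on the log2 scale (SE, limma adjusted p = 0.0304). The call ended without siRNA_Control replicate 1 or 2 (adjusted p = 0.115 and 0.126) and without MYB_KnockDown replicate 3 (adjusted p = 0.0517). It also ended with a common total (0.0629) and with the 6 compared libraries alone (0.184). CTAG2 rose by 0.94 ± 0.27 (limma adjusted p = 0.049), a value at the threshold that 14 of 19 alternative settings put on the other side, with adjusted p of 0.02 to 0.221 over all 19. With the replicate number as a block CTAG2 was not called (limma adjusted p = 0.0511), while MAGEB1 still was. Without MYB_KnockDown replicate 1, whose 14.2 FPKM compares with 5.65 and 5.62 in the other knockdown libraries, the change of CTAG2 was 0.54 (adjusted p = 0.02). The median member changed by 0.15, against -0.03 for all rows, and 24 of 26 members were not called. Without MYB_KnockDown replicate 1, MAGEA3, MAGEA6 and PAGE5 were also called higher, for 5 members in all, where 20.1% of all rows were called. Without MYB_KnockDown replicate 2 or 3 the count was also 5, where 19.4% and 17.8% of all rows were called. Without siRNA_Control replicate 1 or 2 it was 0, where only 173 and 211 of all 13393 rows were called. Without siRNA_Control replicate 3 it was 1, where 429 rows were called. Without any library of the rescue lines it was also 1, where 904 to 1146 rows were called.

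CTAG2, also known as LAGE-1, is the close relative of the antigen NY-ESO-1 and had the largest log2 difference of any tested member between the rescue lines (chrX:154651977-154653579, GRCh38.p14). It had 26.8, 24.7 and 22.9 FPKM in D152V_Rescue, 0.188, 0.408 and 0.108 in MYB-WT_Rescue, 14.2, 5.65 and 5.62 in MYB_KnockDown, and 3.46, 3.15 and 4.17 in siRNA_Control. No 2 groups overlapped, and the order ran from MYB-WT_Rescue through control and knockdown to D152V_Rescue. D152V_Rescue exceeded MYB-WT_Rescue by 4.39 ± 0.27 in log2(FPKM + 1) (SE, limma adjusted p = 2.52e-06). Against control it rose by 2.49 in D152V_Rescue (adjusted p = 2.27e-04) and fell by 1.90 in MYB-WT_Rescue (adjusted p = 0.00148). CTAG1A and CTAG1B are the copies of the NY-ESO-1 gene. CTAG1B was listed at 0 in every library, and CTAG1A was untested, with 0.151, 0.106 and 0.1001 FPKM in D152V_Rescue, 0 in all MYB-WT_Rescue and MYB_KnockDown libraries, and 1 control library above 0. It counts as a member only through the D152V libraries, so no test of its difference is given.

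SSX3 and SSX1, members of a family of transcriptional repressors, were the tested SSX genes and moved apart in the D152V line. SSX3 (chrX:48346427-48356703) had 0.219, 0 and 0.0967 FPKM in D152V_Rescue, 16.9, 12.3 and 10.3 in MYB-WT_Rescue, 34.8, 31.6 and 28.9 in MYB_KnockDown, and 30.1, 31.5 and 27.8 in siRNA_Control. It was near or at 0 in each D152V library and intermediate in each wild-type rescue library. Against control it fell by 4.80 ± 0.16 in D152V_Rescue (SE, limma adjusted p = 3.64e-08) and by 1.15 ± 0.16 in MYB-WT_Rescue (adjusted p = 0.00147). Between the rescue lines the difference was -3.66 (adjusted p = 2.14e-07).

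SSX1 (chrX:48255392-48267444), a gene found fused to SS18 in synovial sarcoma, had 118, 118 and 116 FPKM in D152V_Rescue, 54.7, 50.5 and 42.8 in MYB-WT_Rescue, 127, 95.1 and 87.4 in MYB_KnockDown, and 98.2, 99.7 and 84.4 in siRNA_Control. The wild-type rescue libraries lay below all others. SSX1 fell by 0.92 ± 0.15 in MYB-WT_Rescue against control (SE, limma adjusted p = 0.00297) and was 1.24 higher in D152V_Rescue than in MYB-WT_Rescue (adjusted p = 2.41e-04), while its 0.31 against control in D152V_Rescue was not called (adjusted p = 0.248). SSX2, SSX2B and SSX5 never reached 1 FPKM in any library. SSX2IP, which encodes a centrosome and cell junction protein that binds SSX2, had 42.8, 43.6 and 44.9 FPKM in D152V_Rescue, 53.4, 64.8 and 57.4 in MYB-WT_Rescue, 26.4, 43.1 and 44.9 in MYB_KnockDown, and 46.8, 52.9 and 45.7 in siRNA_Control. It was called in 1 comparison, higher in MYB-WT_Rescue than in MYB_KnockDown by 0.64 ± 0.18 (limma adjusted p = 0.0164). That call ended without MYB-WT_Rescue replicate 2 (adjusted p = 0.0666) and with the 6 compared libraries alone (0.106). The difference was 0.40 without MYB_KnockDown replicate 1 (adjusted p = 0.00476).

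**Figure D4:**
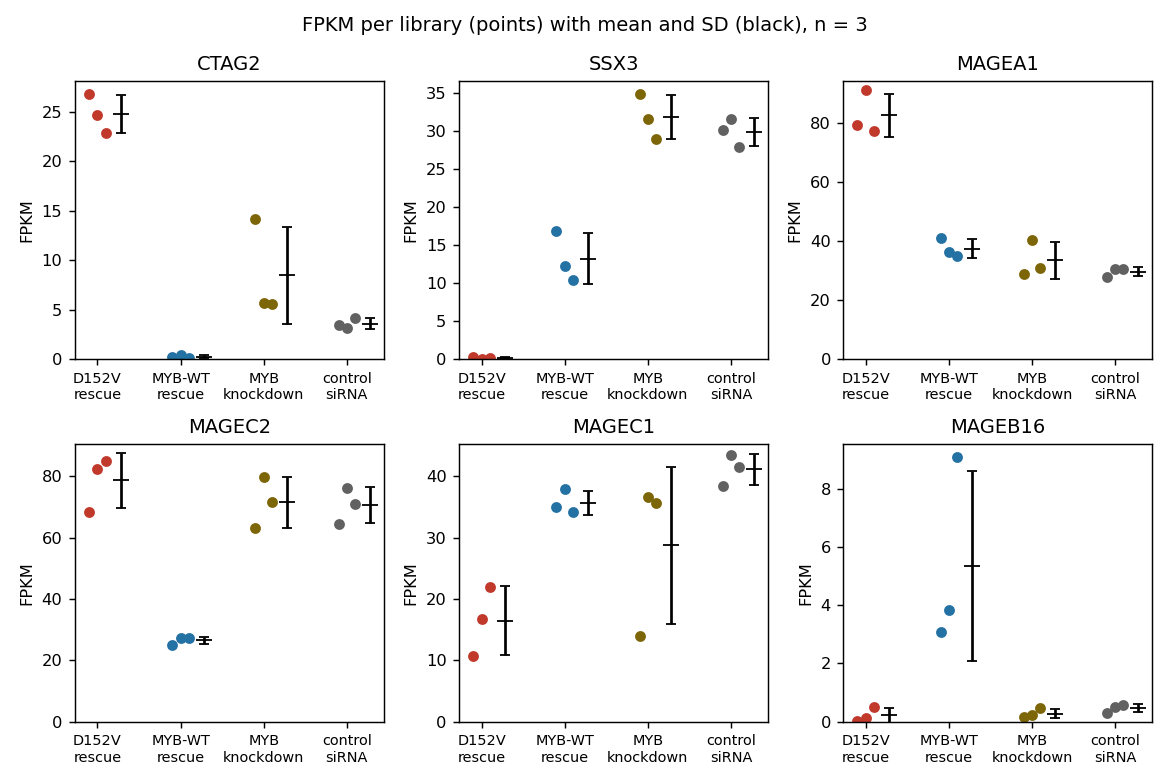
FPKM in each library (points), with the mean and SD over n = 3 (black), for CTAG2, SSX3, MAGEA1, MAGEC2, MAGEC1 and MAGEB16, with groups from D152V_Rescue on the left to siRNA_Control on the right and each axis starting at 0. CTAG2 and MAGEA1 are highest in D152V_Rescue, MAGEC2 is lowest in MYB-WT_Rescue, and MAGEB16 is high in MYB-WT_Rescue alone among these groups.

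In the MAGEA family, whose proteins are classic targets of T cells in melanoma, 7 of 12 members were tested and split into patterns. MAGEA1 (chrX:153179284-153183880), the first MAGE antigen described, had 79.3, 90.8 and 77.2 FPKM in D152V_Rescue, 41.0, 36.3 and 34.7 in MYB-WT_Rescue, 28.8, 40.4 and 30.9 in MYB_KnockDown, and 27.7, 30.4 and 30.5 in siRNA_Control. Every D152V library lay above every other library. It rose by 1.45 ± 0.14 in D152V_Rescue against control (SE, limma adjusted p = 8.23e-05), while MYB-WT_Rescue differed from control by 0.33 (adjusted p = 0.174). MAGEA8, far lower in level, had 2.5, 2.76 and 2.65 FPKM in D152V_Rescue, 0.60, 0.537 and 0.456 in MYB-WT_Rescue, 0.969, 0.983 and 1.66 in MYB_KnockDown, and 0.940, 0.920 and 1.135 in siRNA_Control. Its D152V libraries also lay above all others, and no test of that is given because they let it pass the filter. Its fall of 0.51 in MYB-WT_Rescue against the knockdown (limma adjusted p = 0.0177) ended without MYB_KnockDown replicate 3 (0.0523) or MYB-WT_Rescue replicate 3 (0.0528), and with a common total (0.119), all adjusted p.

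MAGEA3, MAGEA6 and MAGEA12, which lie close together in the Xq28 cluster, were all lower in the wild-type rescue line. MAGEA3 and MAGEA6 are near-identical adaptors of TRIM28 that steer the breakdown of AMPK, and share the promoter printed above. MAGEA3 had 77.4, 82.7 and 77.6 FPKM in D152V_Rescue, 37.6, 28.9 and 37.2 in MYB-WT_Rescue, 63.4, 105.3 and 96.7 in MYB_KnockDown, and 66.7, 77.3 and 82.0 in siRNA_Control. MAGEA6 had 49.1, 55.5 and 47.0 FPKM in D152V_Rescue, 27.9, 24.4 and 25.3 in MYB-WT_Rescue, 68.7, 59.5 and 57.3 in MYB_KnockDown, and 42.8, 49.5 and 48.9 in siRNA_Control. MAGEA12 had 40.3, 47.6 and 44.4 FPKM in D152V_Rescue, 26.4, 20.3 and 23.3 in MYB-WT_Rescue, 43.0, 51.4 and 52.6 in MYB_KnockDown, and 40.6, 46.5 and 47.4 in siRNA_Control. For each of these genes the wild-type rescue libraries lay below all other libraries. Against control, MYB-WT_Rescue fell by 1.11 ± 0.18 for MAGEA3, 0.84 ± 0.12 for MAGEA6 and 0.92 ± 0.13 for MAGEA12 (SE, limma adjusted p = 0.0032, 0.00125 and 0.00142). With values rescaled to a common total the MAGEA3 and MAGEA12 calls ended (adjusted p = 0.0699 and 0.0601). In D152V_Rescue the same contrasts were 0.08, 0.10 and -0.02, none called. Between the rescue lines the D152V values were higher by 1.18, 0.94 and 0.89 (adjusted p = 0.00126, 3.00e-04 and 9.39e-04). MAGEA12 lies 36 bases from CSAG1 and overlaps the pseudogene CSAG4, so reads there may be shared. MAGEA2B and the MAGEA9B row tested, ENSG00000267978, had means of 1.89 and 1.21 FPKM and were not called.

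MAGEC1 and MAGEC2, neighbours on the X chromosome, were low in different rescue lines. MAGEC2 (chrX:142202342-142205290), another binder of TRIM28, had 68.5, 82.4 and 85.0 FPKM in D152V_Rescue, 25.0, 27.2 and 27.3 in MYB-WT_Rescue, 63.2, 79.6 and 71.7 in MYB_KnockDown, and 64.5, 76.2 and 71.1 in siRNA_Control. Its wild-type rescue libraries lay below all others, and the fall against control was 1.38 ± 0.13 (SE, limma adjusted p = 6.80e-05). D152V_Rescue was higher than MYB-WT_Rescue by 1.53 ± 0.13 (adjusted p = 1.65e-05). MAGEC1 (chrX:141903894-141909374) had 10.8, 16.7 and 21.96 FPKM in D152V_Rescue, 34.9, 37.9 and 34.2 in MYB-WT_Rescue, 14.0, 36.7 and 35.6 in MYB_KnockDown, and 38.4, 43.4 and 41.5 in siRNA_Control. Its D152V libraries lay below all wild-type rescue and control libraries, and MYB_KnockDown replicate 1 lay among them.

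MAGEC1 fell by 1.32 ± 0.32 in D152V_Rescue against control (limma adjusted p = 0.0245) and by 1.12 ± 0.32 against MYB-WT_Rescue (adjusted p = 0.0439). The first call ended without any of the control libraries (adjusted p = 0.067, 0.0904 and 0.0766 without replicates 1, 2 and 3) and without D152V_Rescue replicate 1 or 2 (0.099 and 0.0688). The second ended without any of the control libraries, any of the MYB-WT_Rescue libraries, or D152V_Rescue replicate 1 or 2, with adjusted p of 0.0652 to 0.168. With values rescaled to a common total both ended (adjusted p = 0.138 and 0.16). MAGEC3 reached at most 0.085 FPKM.

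The tested MAGEB genes did not share the fall in the wild-type rescue line. MAGEB16 (chrX:35798342-35803772) had 0.0299, 0.122 and 0.495 FPKM in D152V_Rescue, 3.08, 3.85 and 9.08 in MYB-WT_Rescue, 0.148, 0.236 and 0.462 in MYB_KnockDown, and 0.302, 0.503 and 0.563 in siRNA_Control. The wild-type rescue libraries exceeded all others, with replicate 3 well above its group, and they are the 3 libraries through which it passed the filter, so no test is given. MAGEB17 had 0.861, 0.915 and 1.03 FPKM in D152V_Rescue, 1.32, 1.43 and 1.97 in MYB-WT_Rescue, 0.0346, 0.0639 and 0.276 in MYB_KnockDown, and 0.132, 0.101 and 0.349 in siRNA_Control. Both rescue lines lay above both tag-line groups in every library. Against control it rose by 0.70 ± 0.15 in D152V_Rescue (SE, limma adjusted p = 0.0128), while no test is given for MYB-WT_Rescue, without which it would not pass the filter. The D152V call ended without siRNA_Control replicate 1 or 2 (adjusted p = 0.0575 and 0.0645) or D152V_Rescue replicate 3 (0.0514).

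MAGEB1 (chrX:30243731-30252040) had 47.2, 52.7 and 42.0 FPKM in D152V_Rescue and 34.8, 39.9 and 36.0 in MYB-WT_Rescue, above the knockdown and control values given earlier in every library. It was higher than in MYB_KnockDown by 1.26 ± 0.13 in D152V_Rescue and by 0.91 ± 0.13 in MYB-WT_Rescue (SE, limma adjusted p = 1.51e-04 and 5.62e-04). Against control the change was 0.74 ± 0.13 in D152V_Rescue (adjusted p = 0.00412) and 0.40 ± 0.13 in MYB-WT_Rescue (adjusted p = 0.083). Its RefSeq locus overlaps that of MAGEB4, which was above 0 in 3 libraries only. MAGEB2 averaged 51.7 ± 5.49 FPKM in D152V_Rescue, 49.1 ± 1.29 in MYB-WT_Rescue, 52.8 ± 6.10 in MYB_KnockDown and 49.7 ± 5.99 in siRNA_Control (SD, n = 3 each). Its log2 changes over the 6 comparisons ran from -0.10 to 0.09, with SE of 0.13. MAGEB10 and MAGEB18, both below the level filter, had 0.250 to 0.552 and 0.0492 to 0.107 FPKM in MYB-WT_Rescue and at most 0.208 in any other library. Without the filter MAGEB10 was called higher in MYB-WT_Rescue than in MYB_KnockDown (limma adjusted p = 0.0145), while MAGEB18 counts as a member only through the MYB-WT_Rescue libraries and no test of it is given.

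The GAGE, PAGE and CSAG genes encode small proteins, mostly from short transcripts, and were high in the library that stood apart. GAGE2A had 222, 251 and 236 FPKM in D152V_Rescue, 157, 137 and 159 in MYB-WT_Rescue, 1024, 371 and 337 in MYB_KnockDown, and 281, 305 and 294 in siRNA_Control. PAGE5 had 189, 201 and 206 FPKM in D152V_Rescue, 114, 111 and 120 in MYB-WT_Rescue, 548, 198 and 191 in MYB_KnockDown, and 133, 143 and 150 in siRNA_Control. PAGE1 had 44.9, 56.5 and 58.5 FPKM in D152V_Rescue, 16.1, 15.8 and 15.7 in MYB-WT_Rescue, 256, 41.9 and 30.4 in MYB_KnockDown, and 38.7, 39.0 and 36.2 in siRNA_Control. In each, MYB-WT_Rescue was lowest without overlap and MYB_KnockDown replicate 1 was highest. The ratio of that replicate to the mean of the other knockdown libraries had a median of 2.67 (1.43 to 7.08) over the 8 tested members with transcripts of at most 1000 bases, 0.827 over the 13 of more than 1000 and up to 2000 bases, and 0.628 over the 5 longer ones. Over all tested rows with a known length the medians were 1.52, 1.4 and 0.871. These were taken after 1 FPKM was added to both sides of the ratio, which draws low rows toward equal values. They are therefore not the same measure as the member ratios. Across the 26 members the Spearman correlation of this ratio with transcript length was -0.661, a description of 1 library. Its part in the comparisons with the knockdown was not tested.

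**Figure D5:**
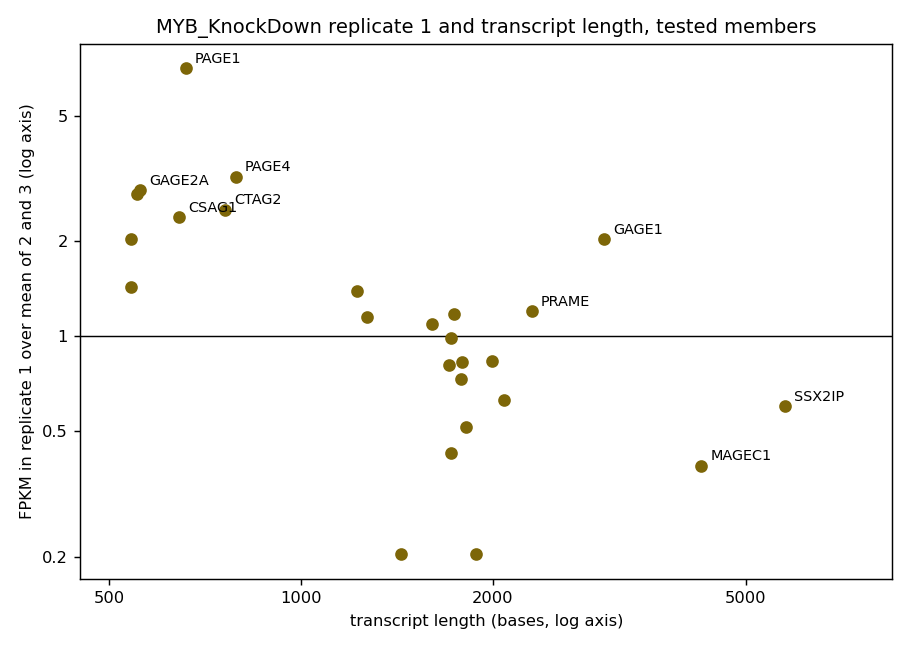
FPKM of MYB_KnockDown replicate 1 over the mean of replicates 2 and 3 (log axis) against transcript length in bases (log axis) for the 26 tested members, with a line at equal values. PAGE1 is highest at 7.08, GAGE2A stands at 2.9, MAGEC1 at 0.388 and SSX2IP at 0.6.

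PAGE1, PAGE2B, PAGE4, PAGE5, both tested GAGE genes and CSAG1 were lower in MYB-WT_Rescue than in MYB_KnockDown, from -0.89 for GAGE1 to -2.06 for PAGE1, with limma adjusted p of 6.26e-04 for PAGE2B to 0.02 for CSAG1. Without MYB_KnockDown replicate 1 all of these calls held, each at a smaller size. PAGE1, PAGE5, CSAG1 and GAGE1 stood at -1.12, -0.75, -0.52 and -0.55, against -2.06, -1.25, -0.94 and -0.89 with it. GAGE2A, PAGE4 and PAGE2B stood at -1.22, -1.13 and -1.43, against -1.73, -1.59 and -1.74. The PAGE1 call ended without MYB-WT_Rescue replicate 2 (adjusted p = 0.0513), and the CSAG1 call ended without MYB-WT_Rescue replicate 2 or 3 (0.0605 and 0.0616). Fitted with the 6 compared libraries alone, the calls of GAGE1, PAGE1, PAGE5 and CSAG1 ended (adjusted p = 0.0843, 0.1, 0.0818 and 0.11). Fewer were called in D152V_Rescue against MYB_KnockDown: GAGE1, GAGE2A and PAGE2B fell by 0.95, 1.09 and 2.36. Without MYB_KnockDown replicate 1 the changes of GAGE1 and GAGE2A were -0.62 and -0.58. The GAGE2A call (adjusted p = 0.0322) ended without D152V_Rescue replicate 1, 2 or 3 (0.0902, 0.0763 and 0.0803), and that of GAGE1 (adjusted p = 0.0146) without D152V_Rescue replicate 3 (0.0554). Both ended with the 6 compared libraries alone (0.163 and 0.114), and GAGE2A also with no filter (0.0561).

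Against control, where no knockdown library is compared, PAGE2B fell in both rescue lines. PAGE2B had 0.217, 0.748 and 0.904 FPKM in D152V_Rescue, 1.29, 1.79 and 1.297 in MYB-WT_Rescue, 11.5, 5.33 and 5.91 in MYB_KnockDown, and 4.13, 3.26 and 3.69 in siRNA_Control. It fell by 1.55 ± 0.25 in D152V_Rescue (SE, limma adjusted p = 0.00262) and by 0.94 ± 0.25 in MYB-WT_Rescue (adjusted p = 0.0384). The wild-type call ended without any control library (adjusted p = 0.133, 0.084 and 0.112 without replicates 1, 2 and 3), any MYB-WT_Rescue library (0.114, 0.0733 and 0.114) or D152V_Rescue replicate 2 (0.058). It also ended with a pseudocount of 0.1 (0.077), no filter (0.0671) and the replicate block (0.0611). The RefSeq locus of PAGE2B overlaps ALAS2, the first enzyme of heme synthesis in red cells, which averaged 103 ± 21.4 FPKM in D152V_Rescue, 41.1 ± 8.27 in MYB-WT_Rescue, 85.7 ± 21.1 in MYB_KnockDown and 58.1 ± 6.93 in siRNA_Control (SD, n = 3 each), an order unlike that of PAGE2B. PAGE2 was listed at 0 in replicates 1 and 2 of both rescue lines, with 0.234 FPKM in D152V_Rescue replicate 3 and 0.211 in MYB-WT_Rescue replicate 3, against 1.44, 0.718 and 1.29 in MYB_KnockDown and 0.794, 1.21 and 0.780 in siRNA_Control. All libraries of both rescue lines lay below all libraries of the tag line. It passed the filter through 3 libraries of the tag line, so no test is given.

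PAGE4, which encodes a disordered protein of the prostate and testis, had 1.997, 2.12 and 2.33 FPKM in D152V_Rescue, 0.599, 0.308 and 0.444 in MYB-WT_Rescue, 7.21, 1.52 and 2.98 in MYB_KnockDown, and 1.16, 1.58 and 1.58 in siRNA_Control. All D152V libraries lay above all wild-type rescue libraries, and the difference was 1.12 ± 0.32 (SE, limma adjusted p = 0.0441). This call held without MYB_KnockDown replicate 1 or 2 and ended without any of the 10 other libraries, with adjusted p of 0.0533 to 0.147. It also ended with no filter (0.0681) and with quantile normalization (0.0613). CSAG1, which sits beside MAGEA12, had 58.9, 51.5 and 62.4 FPKM in D152V_Rescue, 38.5, 33.3 and 30.9 in MYB-WT_Rescue, 118, 49.7 and 49.1 in MYB_KnockDown, and 49.5, 51.3 and 48.1 in siRNA_Control. Its wild-type rescue libraries were the lowest, as for MAGEA12, yet it was not called between the rescue lines (0.74 ± 0.27, limma adjusted p = 0.109). It was called there without MYB_KnockDown replicate 1 (adjusted p = 1.54e-04), with the 6 compared libraries alone (0.00257), with quantile normalization (0.00916) and with a common total (0.0128). GAGE1 averaged 36.4 ± 4.75 FPKM in D152V_Rescue, 38.0 ± 2.25 in MYB-WT_Rescue, 75.5 ± 33.5 in MYB_KnockDown and 56.9 ± 4.36 in siRNA_Control (SD, n = 3 each). Both rescue lines lay below control in every library, at -0.64 in D152V_Rescue and -0.57 in MYB-WT_Rescue with an SE of 0.23, and neither was called (limma adjusted p = 0.125 and 0.16). Both were called without MYB_KnockDown replicate 1.

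PRAME (chr22:22547701-22559265), the autosomal and most abundant member, had 938, 1131 and 1157 FPKM in D152V_Rescue, 743, 701 and 785 in MYB-WT_Rescue, 1303, 1099 and 1066 in MYB_KnockDown, and 930, 997 and 1064 in siRNA_Control. The wild-type rescue libraries lay below all others. PRAME took 0.152% of the FPKM total in D152V_Rescue, 0.105% in MYB-WT_Rescue, and 0.134% in both MYB_KnockDown and siRNA_Control. It was lower in MYB-WT_Rescue than in MYB_KnockDown by -0.63 ± 0.15 (SE, limma adjusted p = 0.00681), a value that became 0.04 after quantile normalization (adjusted p = 0.875) and -0.34 with a common total (adjusted p = 0.108). It was higher in D152V_Rescue than in MYB-WT_Rescue by 0.53 ± 0.15 (adjusted p = 0.0357). That second call ended in 8 of the 12 fits without 1 library: without any control or any MYB-WT_Rescue library, or without D152V_Rescue replicate 2 or 3, with adjusted p of 0.0572 to 0.135. It also ended with no filter (0.0673), with quantile normalization (0.093) and with a common total (0.0587). Against control neither rescue line was called, at 0.11 in D152V_Rescue (adjusted p = 0.77) and -0.42 in MYB-WT_Rescue (adjusted p = 0.0959). The wild-type change was called without MYB_KnockDown replicate 1 (adjusted p = 0.00574) and with the 6 compared libraries alone (0.00964).

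The 22 members that were not tested stayed low. XAGE1B had 0.827, 0.267 and 0.767 FPKM in D152V_Rescue, 0.853, 1.40 and 0.646 in MYB-WT_Rescue, 0.538, 0.479 and 0.615 in MYB_KnockDown, and 1.46, 0.930 and 0.980 in siRNA_Control, so that the D152V libraries lay below all control libraries while the wild-type rescue libraries overlapped control. XAGE1A, MAGEA4 and GAGE12J each reached 1 FPKM in 1 library, with maxima of 1.19, 1.67 and 1.23. The near-identical MAGEA2 reached at most 0.762 FPKM and was not called with the filter dropped. GAGE10 was listed at 0 in all MYB-WT_Rescue libraries, against 0.251, 0.256 and 0.155 FPKM in MYB_KnockDown. With the filter dropped, GAGE10, MAGEB10, MAGEB18 and CTAG1A were the untested members with a call in any comparison, the last 2 being members only through the group where they were high.

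Related genes were counted beside the members in whole lists by name, and the genes named from them were picked among those called. Of all tested rows, 9.62% were called in MYB-WT_Rescue and 9.55% in D152V_Rescue against control. Between the rescue lines 12.1% of all tested rows were called, and in MYB-WT_Rescue against MYB_KnockDown 37.6%. Of 12 tested X-linked cancer-testis genes outside the families above, 0 were higher and 5 lower in MYB-WT_Rescue than in control, and 2 were higher and 3 lower in D152V_Rescue. Between the rescue lines 6 of these 12 were higher in D152V_Rescue than in MYB-WT_Rescue and 3 lower. SAGE1 averaged 14.99 ± 1.01 FPKM in D152V_Rescue, 3.84 ± 0.22 in MYB-WT_Rescue, 16.0 ± 5.14 in MYB_KnockDown and 11.9 ± 0.652 in siRNA_Control (SD, n = 3 each), and fell by 1.42 in MYB-WT_Rescue against control (limma adjusted p = 5.46e-04). PASD1 averaged 0.337 ± 0.0853 FPKM in D152V_Rescue, 1.72 ± 0.0503 in MYB-WT_Rescue, 4.62 ± 0.867 in MYB_KnockDown and 5.64 ± 0.154 in siRNA_Control (SD, n = 3 each), and fell by 2.31 in D152V_Rescue and by 1.29 in MYB-WT_Rescue against control (adjusted p = 2.83e-06 and 1.91e-04). One of the 2 higher in D152V_Rescue is AKAP4, a sperm tail protein gene, which passed the filter only through the D152V libraries and is not tested here. AKAP4 is also among the 6 higher between the rescue lines, and that difference was likewise fixed by the filter. Of 13 tested autosomal cancer-testis genes, 1 was higher and 1 lower in D152V_Rescue than in control, and 0 higher and 2 lower in MYB-WT_Rescue. Of 6 tested MAGE genes outside the antigen families, which are expressed broadly, 0 were higher and 1 lower than control in each rescue line, NDN in D152V_Rescue and NSMCE3 in MYB-WT_Rescue. In MYB-WT_Rescue against MYB_KnockDown 1 of these 6 was higher and 5 lower (median -0.85), and in D152V_Rescue against MYB-WT_Rescue 3 were higher and 1 lower (median 0.57).

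Genes that act on the members' promoters or proteins were counted against the shares of all rows called, given above for each comparison. Of 27 tested genes of DNA methylation and repressive chromatin, 0 were higher and 1 lower in each rescue line: HDAC1, a histone deacetylase, fell by 0.51 in D152V_Rescue (limma adjusted p = 0.0323), and TET1, which oxidises methylcytosine, fell by 0.53 in MYB-WT_Rescue (adjusted p = 0.0369). DNMT1, the maintenance methyltransferase, averaged 44.1 ± 1.66 FPKM in D152V_Rescue, 45.7 ± 3.76 in MYB-WT_Rescue, 39.1 ± 11.9 in MYB_KnockDown and 55.5 ± 1.82 in siRNA_Control (SD, n = 3 each), and was not called in any comparison. Against MYB_KnockDown, 7 of the 27 were higher and 2 lower in D152V_Rescue, and 5 were higher and 2 lower in MYB-WT_Rescue. Between the rescue lines DNMT3A was 0.51 higher in D152V_Rescue (adjusted p = 0.0244). In the knockdown against control 1 of the 27 was higher and 5 lower, among them DNMT3B, a de novo methyltransferase, which fell by 0.66 (adjusted p = 0.0455), and CTCFL, itself a testis antigen that binds CTCF sites, which fell by 0.58 (adjusted p = 0.0155). Of 21 tested partners of PRAME, SSX and MAGE proteins, 1 was higher and 1 lower than control in each rescue line. RARG, a retinoic acid receptor, was the one lower in both lines, and RARB, the one higher in D152V_Rescue, passed the filter only through that group and is not tested here. Against MYB_KnockDown, 5 of the 21 were higher and 2 lower in D152V_Rescue, and 7 were higher and 4 lower in MYB-WT_Rescue. RARB is among those 5, and its difference was fixed by the filter there too. CUL2 and TRIM28 were called in no comparison, and SS18 was called in 1, higher in D152V_Rescue than in MYB_KnockDown by 0.52 (adjusted p = 0.0427).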

How the data were processed

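Poly(A) RNA of 12 K-562 libraries was sequenced as 125-bp paired-end reads after TruSeq stranded preparation, per the labels' protocols and the design text. The authors deposited 1 table of FPKM values for 60658 rows. Per the submitters' processing notes reads were handled with TopHat2 2.0.13, Cufflinks 2.2.1, Trimmomatic 0.33 and bcl2fastq 2.17.1.14, on GRCh38. The sources used here give neither the annotation nor whether strand was used. Whole reads could not be recovered from the FPKM steps, so no count test was run, and the number of libraries limits the precision. FPKM depends on transcript length and on a few abundant transcripts. Symbols came from a table of Ensembl identifiers (56950 rows matched), gene type and transcript length from GENCODE, and coordinates and promoters from RefSeq tables on GRCh38.p14. PRAME was read as that gene alone. The PRAMEF copies were left out, and of 23 such rows 0 were above 0 in 3 or more libraries.

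Rows with at least 1 FPKM in at least 3 libraries (13393) were tested with limma 3.58.1 in R 4.3.3 on log2(FPKM + 1), with a variance trend, all 12 libraries, 8 residual degrees of freedom and Benjamini-Hochberg adjustment over all rows. The log2 scale with a pseudocount of 1 understates changes of low genes. Calls in favour of a group without which a row would have fewer than 3 libraries at 1 FPKM were set aside after the values were seen. The procedure was tested on simulated data. Tables and figures used Python 3.11.15, pandas 2.3.3 and matplotlib 3.10.9. Named genes were every tested member, the highest member of each family, any member called with or without the filter, MYB, and of each related list up to 4 called genes with the smallest adjusted p per comparison, with CUL2, SS18, SSX2IP, TRIM28 and CTCFL; from the lists only a selection of these is given, and DNMT1, DNMT3B and ALAS2 were added after their values were seen. The members and lists were chosen with earlier results of these data known. Same-numbered libraries of the rescue lines correlated in their deviations at r of 0.153 to 0.233, above every differently numbered pairing of those libraries. Those of knockdown and control did so too, at lower r of 0.0376, 0.132 and 0.0899. The numbers from the titles were therefore read as pairing the libraries within each of these pairs of groups. In the other pairs of groups some differently numbered libraries correlated higher. Alternatives were a pseudocount of 0.1, no filter, quantile normalization, median-ratio scaling, TPM rescaling (each library brought to a common FPKM total), the replicate block, only the 6 libraries compared, and each library left out.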

Additional observations from a re-analysis of the deposited data

How the results depend on the processing

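The 66 calls of single members were refitted under 19 settings, and 1152 of 1254 refits kept the call, 101 lost it and 1 reversed, with 43 calls kept in every setting. These totals, and the member counts that follow, include the calls of MAGEA8, MAGEB16, MAGEB17 and PAGE2 that the level filter fixed. Refits that kept those fixed calls are no support for them. The reversed value is PRAME in MYB-WT_Rescue against MYB_KnockDown, 0.04 with quantile normalization; the cause was not tested. For MYB_KnockDown against siRNA_Control, 2 members and 1516 of 13393 rows were called. The member count was 1 with a pseudocount of 0.1 (1466 rows), 4 with quantile normalization (1952 rows) and 0 with TPM rescaling (505 rows). It was 1 with the replicate block (1712 rows) and 0 with only the 6 libraries compared (16 rows). With each library left out it was 0 to 5, where 173 to 2697 rows were called. At 0 members called, limma still put 3698 rows (TPM rescaling) and 2632 rows (only 6 libraries) at an unadjusted p under 0.05. With only the 6 libraries compared the count was 14 for MYB-WT_Rescue against MYB_KnockDown (21 as reported), 6 for D152V_Rescue against MYB_KnockDown (10), 20 for D152V_Rescue against MYB-WT_Rescue (13), 21 for MYB-WT_Rescue against siRNA_Control (11) and 14 for D152V_Rescue against siRNA_Control (9), where 12.6%, 4.09%, 24.5%, 26.2% and 26.7% of all rows were called (37.6%, 25.1%, 12.1%, 9.62% and 9.55% as reported). With each library left out the last 4 ran from 8 to 14, 10 to 21, 9 to 21 and 6 to 14, the highest each time without MYB_KnockDown replicate 1. All rows called in these fits ran from 1639 to 4389, 1020 to 4209, 682 to 3973 and 725 to 3706. For MYB-WT_Rescue against MYB_KnockDown the members called ran from 18 to 22, where 3194 to 6055 rows were called. The replicate block lost CTAG2 in the knockdown, gained MAGEB1 and lost PAGE2B in MYB-WT_Rescue against control, gained MAGEB1 between the rescue lines, and changed no other call. Depth is unknown, so the counting error of values near 0 could not be estimated.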

Other observations

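The 2 rows that map to MAGEA9B had different values. ENSG00000267978 averaged 0.608 ± 0.246 FPKM in D152V_Rescue, 1.80 ± 0.727 in MYB-WT_Rescue, 1.38 ± 0.711 in MYB_KnockDown and 1.06 ± 0.413 in siRNA_Control (SD, n = 3 each). ENSG00000123584 reached at most 0.0805 FPKM in any library. How reads of these copies were split was not tested.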
